A study of Mus musculus with 10 samples.

Results

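Leukaemia inhibitory factor (Lif) and the interleukin-6 cytokine family were followed in 10 RNA-seq libraries, 5 labelled as Schwann cells from pancreas and 5 as tumour-associated Schwann cells from pancreatic tumours. The family was taken as 10 genes named by symbol, and each had 1 row among the 55401 gene rows. They were the ligand genes Lif, Il6, Il11, Clcf1, Osm and Cntf, the receptor genes Il6st, Lifr and Osmr, and the feedback inhibitor gene Socs3. Of these, 9 had enough counts to be tested, and Osm had none.

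Cells of both groups came from C57BL/6 mice of a tamoxifen-inducible KPC line at 4 months of age, and were sorted by surface staining for NGFR, the low-affinity neurotrophin receptor. KPC mice are a Cre-driven model of pancreatic ductal adenocarcinoma, and the labels give neither the alleles nor the promoter of the Cre. At 6 weeks of age, tumour mice were injected with tamoxifen (20 mg/kg daily for 5 days), and pancreas mice with a solution lacking it. Pancreas was digested with hyaluronidase and collagenase and tumour with a commercial dissociation kit, so digestion and group cannot be told apart. The sample codes are CTL for pancreas and COCUL for tumour. If the second stood for co-culture, the values would be those of cultured cells, which the protocols do not mention.

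The cytokines of this family signal through the shared receptor subunit encoded by Il6st. LIF pairs it with LIFR, oncostatin M with OSMR, and interleukin-6 and interleukin-11 with alpha receptors of their own. CNTF and CLCF1 use LIFR together with the CNTF receptor. The receptors activate JAK kinases and the transcription factor STAT3. STAT3 switches on SOCS3, an inhibitor that binds the shared subunit and damps the signal. In injured nerve, Schwann cells raise Lif and Il6, while Cntf is known as a product of myelinating Schwann cells. In pancreatic tumours, LIF and interleukin-6 are known as stromal signals to cancer cells.

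In these libraries Lif was higher in tumour, while the other ligand genes that passed the test were lower. Lif rose 1.83-fold, whereas Il6 fell 2.56-fold, Il11 3.08-fold and Clcf1 1.78-fold. Among receptors, Lifr rose 3.34-fold from a low level and Osmr fell 1.62-fold, and Il6st, the most abundant member, did not pass the test. Socs3 fell 2.45-fold. Of the 9 tested members 2 were higher and 5 lower in tumour (22.2% and 55.6%). Of all 17548 tested genes 32.4% were higher and 33.4% lower, 65.8% together (edgeR quasi-likelihood test, adjusted p below 0.05). The libraries of the groups did not overlap for 6 of the 9 members (66.7%), against 54.6% of all tested genes. With 9 genes chosen with earlier results known, nothing is read from these shares.

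Promoters of Lif, Il6 and Socs3 are shown because these genes changed in opposite directions and are known targets of the factors named next. RefSeq (GRCm38.p6) gave windows from 250 bases before to 50 after the start for 8 members, all but Clcf1 and Osm. Capitals mark the AP-1 letters TGANTCA, the STAT letters TTCNNNGAA and an NF-kappaB motif, each searched on both strands. The Lif window is chr11:4257318-4257617 (plus strand), the Il6 window chr5:30012864-30013163 (plus strand) and the Socs3 window chr11:117969317-117969616 (minus strand).
Lif: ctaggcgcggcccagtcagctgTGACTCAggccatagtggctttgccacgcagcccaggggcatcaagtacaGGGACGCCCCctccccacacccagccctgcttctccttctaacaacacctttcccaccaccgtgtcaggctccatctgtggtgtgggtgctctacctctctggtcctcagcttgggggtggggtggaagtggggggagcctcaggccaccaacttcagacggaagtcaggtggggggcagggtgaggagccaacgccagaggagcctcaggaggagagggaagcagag
Il6: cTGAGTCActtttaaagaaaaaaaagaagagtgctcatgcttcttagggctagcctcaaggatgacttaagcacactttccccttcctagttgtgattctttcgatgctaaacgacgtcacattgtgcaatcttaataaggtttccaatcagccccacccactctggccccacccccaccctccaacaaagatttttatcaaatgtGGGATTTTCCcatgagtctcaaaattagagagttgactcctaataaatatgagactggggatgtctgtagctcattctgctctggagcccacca
Socs3: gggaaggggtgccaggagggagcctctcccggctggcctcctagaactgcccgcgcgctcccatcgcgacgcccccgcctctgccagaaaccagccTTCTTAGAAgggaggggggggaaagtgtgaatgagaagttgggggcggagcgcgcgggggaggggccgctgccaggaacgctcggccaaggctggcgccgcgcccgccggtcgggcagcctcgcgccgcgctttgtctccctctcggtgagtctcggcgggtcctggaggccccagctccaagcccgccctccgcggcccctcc
Lif held TGACTCA from 228 bases before its start, and Il6 held TGAGTCA from 249 bases before. Both also held an NF-kappaB match, GGGACGCCCC from 178 bases before the Lif start and GGGATTTTCC from 44 bases before the Il6 start. The Socs3 window was the only one of the 8 members' windows with the STAT letters, TTCTTAGAA from 154 bases before the start. AP-1 letters stood in windows of 5 members (Lif, Il6, Il11, Cntf and Osmr), among them 1 gene that rose and 3 that fell. Marked matches did not overlap. Across all 32851 RefSeq windows 7.81% held the AP-1 letters, 8.30% the STAT letters and 8.46% the NF-kappaB motif. A match describes letters, not a binding site.

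Several features of the libraries stand beside the results. Total estimated counts ran from 58242278 to 89816499 per library. The first principal component (64.7% of the variance) separated the groups, and the second (6.96%) set pancreas replicates 3 and 4 apart from the other pancreas libraries. The labelled cell type was weakly marked. Of 10 Schwann lineage markers 7 stayed below 1 CPM in every library, Sox10, S100b and Ngfr among them, and Foxd3 was at 0. The list summed to 3.25 to 4.95 CPM in pancreas and 9.35 to 13.1 in tumour, where its most abundant gene was Sox5 (0.375 and 6.36 CPM), which is not particular to Schwann cells. Below, levels are TMM-scaled CPM (counts relative to the scaled library total), as mean ± SD over the 5 libraries of a group. Each log2 fold change is that of tumour over pancreas ± SE, with the adjusted p of the edgeR quasi-likelihood test over all tested genes. In bulk libraries fewer cells of a type and less RNA per cell cannot be told apart.

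Lif encodes leukaemia inhibitory factor (ENSMUSG00000034394.14, chromosome 11, 4257557 to 4272514, mm10). Its level in pancreas replicates 1 to 5 was 15, 13.2, 11.6, 13.2 and 13.9 CPM. In tumour replicates 1 to 5 it was 23.5, 27.0, 24.9, 22.0 and 24.8 CPM. Every tumour library lay above every pancreas library, and the spread within groups was small (13.4 ± 1.25 and 24.4 ± 1.84 CPM). The log2 fold change was 0.87 ± 0.08 (adjusted p = 6.1e-07). It was above the log2 fold change of 83.3% of all tested genes.

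Il6, the cytokine that names the family (ENSMUSG00000025746.11, chromosome 5, 30013114 to 30019981), moved the other way. Pancreas replicates 1 to 5 had 18.6, 19.3, 10.4, 11.0 and 17.9 CPM. Tumour replicates 1 to 5 had 6.27, 6.22, 6.22, 4.48 and 6.91 CPM. All tumour libraries were below all pancreas libraries, and pancreas replicates 3 and 4 were low within their group. The log2 fold change was -1.36 ± 0.19 (adjusted p = 2.9e-05), and -1.63 (adjusted p = 1.5e-07) without those libraries.

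Il11 (ENSMUSG00000004371.15, chromosome 7, 4772373 to 4782859), whose product is known for driving fibrosis, was rare in both groups. Its pancreas values were 1.56, 2.07, 1.58, 1.55 and 1.11 CPM, and its tumour values 0.320, 0.557, 0.545, 0.270 and 0.874 CPM. The groups did not overlap, although the highest tumour library came close to the lowest pancreas library. The log2 fold change was -1.62 ± 0.32 (adjusted p = 0.00051).

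Clcf1, cardiotrophin-like cytokine factor 1 (ENSMUSG00000040663.9, chromosome 19, 4214238 to 4223490), was the ligand gene with the most counts in pancreas. It had 37.3, 39.1, 33.2, 35.4 and 43.3 CPM in pancreas and 21.1, 19.0, 23.0, 21.7 and 20.9 CPM in tumour. No tumour library reached the pancreas range, and the log2 fold change was -0.83 ± 0.08 (adjusted p = 5.2e-07). Another gene on the same strand, AC109138.7, shares 8.2% of its exon bases and had 0 to 11 counts per library.

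The remaining ligand genes were absent or near the floor. Osm, oncostatin M (ENSMUSG00000058755.3, chromosome 11, 4236420 to 4241026), is a product of activated leukocytes that lies beside Lif. It had 0 counts in all 10 libraries, and since the number of fragments behind a count is unknown, no upper limit is given. Cntf (ENSMUSG00000079415.2, chromosome 19, 12763660 to 12765632) had 0, 4, 38, 22 and 1 counts in pancreas and 0, 12, 0, 24 and 25 in tumour. Its groups overlapped fully and it did not pass (0.03 ± 1.18, adjusted p = 0.983). Exons of the zinc finger gene Zfp91 cover 78.9% of its exon bases, and Zfp91 had 7227 to 12594 counts per library, so the few Cntf counts are uncertain.

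**Figure D1:**
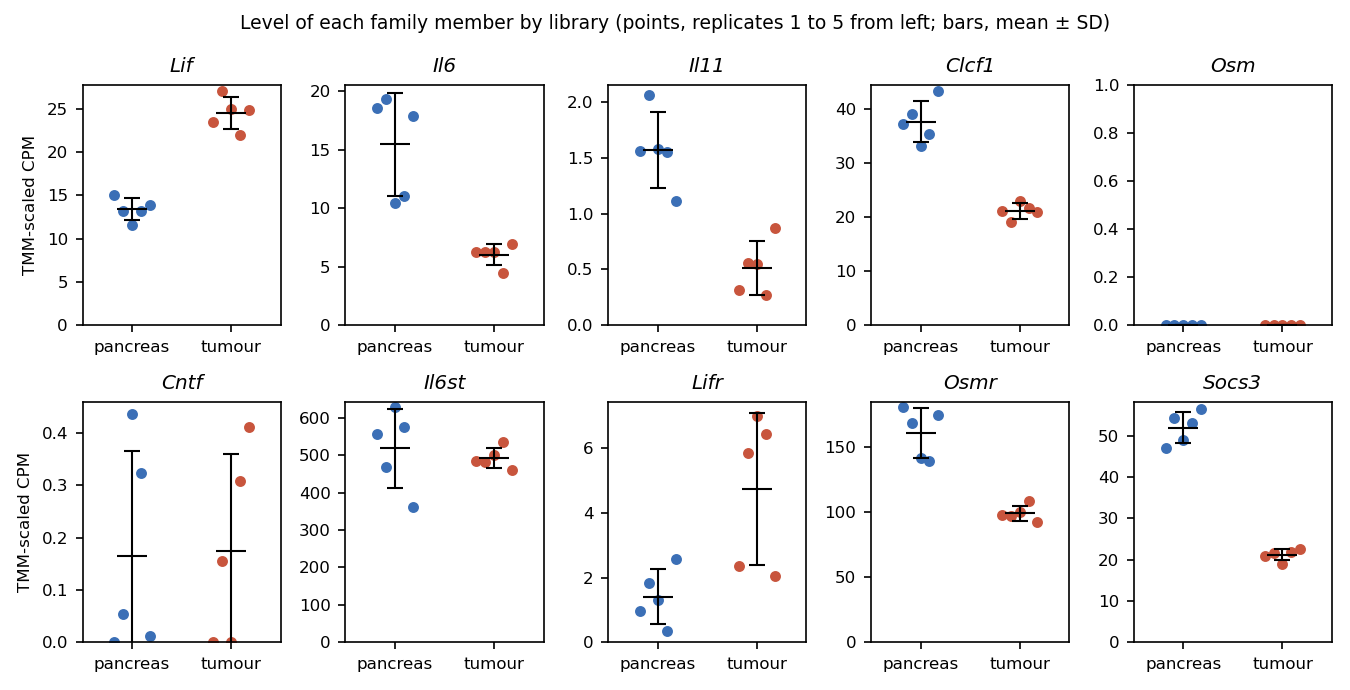
TMM-scaled CPM of the 10 family members in each library, pancreas in blue and tumour in red. Points are replicates 1 to 5 from left to right and bars are mean ± SD. Lif lies higher in every tumour library, while Il6, Il11, Clcf1, Osmr and Socs3 lie lower in every one, Lifr, Il6st and Cntf overlap, and Osm is at 0.

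Markers of cells that can make these cytokines gave the following values, where 32.4% of all tested genes were higher and 33.4% lower. Fibroblast markers summed to 520 to 619 CPM in pancreas and 95.4 to 116 in tumour. Of 9 tested members 7 were lower and 1 higher, the receptor gene Pdgfra (12.4 and 45.1 CPM), named after its values were seen. Thy1, a fibroblast and neural surface antigen, held 56.9% of the list's sum over both groups together (392 CPM in pancreas and 3.99 in tumour). Lum and Postn stayed below 1 CPM in every library. Col1a1 (1.54 and 0.804 CPM), Col1a2 (1.09 and 0.0443 CPM) and Dcn (0.737 and 0 CPM), named after their values were seen, were low in both groups. Il6, Il11, Clcf1, Osmr and Socs3 fell with this list, and Lif and Lifr rose with the Schwann lineage list. The sums of the pericyte, ductal and T cell lists below fell too, and that of the acinar list rose. The part of any of these lists in the changes of the members was not tested. Macrophage markers summed to 19.7 to 42.5 CPM in pancreas and 25.1 to 27.3 in tumour. Of the 10 listed, 7 stayed below 1 CPM in every library. These were Adgre1, C1qa and C1qb, at 0, and Lyz2, Itgam, Mrc1 and Ptprc. Of the list's tested genes the lipopolysaccharide receptor gene Cd14, 53.6% of the sum over both groups, fell (20.2 and 9.77 CPM). The lysosomal gene Cd68, named after its values were seen, rose (3.26 and 9.31 CPM). Neutrophil markers, from a cell type known to make oncostatin M, summed to at most 0.447 CPM, with S100a9 and Mpo at 0. Markers of T and natural killer cells (1.13 to 3.48 and 0.411 to 0.818 CPM) and of acinar cells (0.398 to 1.32 and 1.53 to 2.78 CPM) were also few. Endothelial markers summed to 514 to 588 and 521 to 559 CPM, with members moving in opposite directions (1 higher and 2 lower of 6 tested). Of the 9 listed, 5 stayed below 1 CPM in every library (Pecam1, Tek, Emcn, Cldn5 and Tie1). The cadherin gene Cdh5, the most abundant over both groups, fell (333 and 191 CPM), and the VEGF receptor gene Flt1, named after its values were seen, rose (173 and 336 CPM). Pericyte and smooth muscle markers summed to 653 to 829 and 407 to 436 CPM, with 5 of 9 tested members lower and 3 higher. The proteoglycan gene Cspg4, the most abundant over both groups, rose (171 and 248 CPM). The smooth muscle actin gene Acta2 (266 and 1.74 CPM) and Tagln (41.8 and 0.541 CPM), named after their values were seen, fell. Ductal and neoplastic epithelium markers summed to 677 to 791 and 460 to 551 CPM, of which the mesothelin gene Msln was 88.1% over both groups. Of 7 tested members 6 were lower and 0 higher. Krt8, Krt18, Epcam, Cdh1 and Krt7 stayed below 1 CPM in every library.

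Il6st (ENSMUSG00000021756.12, chromosome 13, 112464070 to 112510086) encodes the subunit shared by all these receptors. Pancreas replicates 1 to 5 had 555, 467, 629, 576 and 362 CPM. Tumour replicates 1 to 5 had 484, 481, 500, 535 and 461 CPM. The tumour libraries lay inside the wider pancreas range, and Il6st did not pass (-0.07 ± 0.12, adjusted p = 0.613). Without pancreas replicate 5, the lowest library, it passed with a log2 fold change of -0.18 (adjusted p = 0.0418), and without pancreas replicates 3 and 4 its log2 fold change was 0.09 (adjusted p = 0.522).

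Lifr (ENSMUSG00000054263.12, chromosome 15, 7090614 to 7197489), the signalling partner for LIF, was the scarcest of the 3 receptor genes among the members. Pancreas replicates 1 to 5 had 0.979, 1.83, 1.32, 0.339 and 2.58 CPM. Tumour replicates 1 to 5 had 2.35, 5.85, 6.98, 6.43 and 2.04 CPM. Tumour replicates 2, 3 and 4 lay above all pancreas libraries, while tumour replicates 1 and 5 lay within the pancreas range. It passed with a log2 fold change of 1.74 ± 0.50 (adjusted p = 0.00913), the widest error of the members called.

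Osmr (ENSMUSG00000022146.12, chromosome 15, 6813577 to 6874969) encodes the oncostatin M receptor subunit and is a neighbour of Lifr. It had 180, 168, 141, 139 and 174 CPM in pancreas and 97.3, 97.2, 100, 108 and 91.9 CPM in tumour. All tumour libraries were lower than all pancreas libraries, with a log2 fold change of -0.70 ± 0.08 (adjusted p = 2.3e-06). So the receptor gene of a ligand with 0 counts was abundant, and it changed in the direction opposite to Lifr.

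Socs3 (ENSMUSG00000053113.3, chromosome 11, 117966079 to 117970047), the feedback inhibitor, had the smallest adjusted p of the members. Pancreas replicates 1 to 5 had 47.1, 54.2, 49.0, 53.1 and 56.3 CPM. Tumour replicates 1 to 5 had 21.0, 21.7, 19.0, 21.8 and 22.5 CPM. Every tumour library was far below every pancreas library, and the log2 fold change was -1.29 ± 0.07 (adjusted p = 2.1e-09). Only 7.57% of all tested genes had a lower log2 fold change. It was -1.32 without pancreas replicates 3 and 4.

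**Figure D2:**
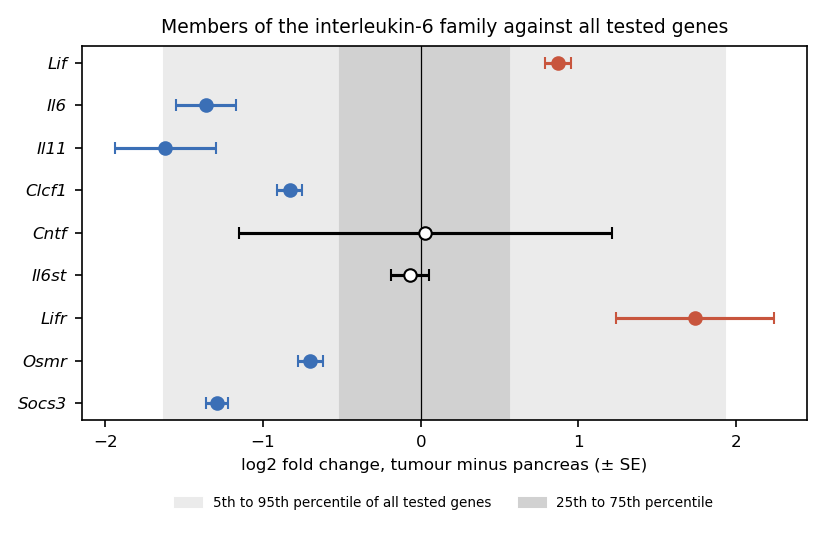
Log2 fold change (tumour minus pancreas) ± SE of the 9 tested members, red where higher, blue where lower and open where not called. Dark and light bands hold the middle of all tested genes, from -0.51 to 0.56 and from -1.63 to 1.93. Lif and Lifr lie to the right, Il11 lies at the edge of the light band on the left, and Il6st and Cntf sit near 0.

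Levels between members were compared as CPM per kb of exon. In pancreas the order was Il6st (46.7 ± 9.46), Socs3 (18 ± 1.32), Osmr (13.2 ± 1.58), Clcf1 (9.89 ± 1.02), Il6 (6.35 ± 1.80), Lif (3.07 ± 0.287), Il11 (0.756 ± 0.164), Cntf (0.154 ± 0.187) and Lifr (0.131 ± 0.0789). Library values of neighbours in that order overlapped only for Cntf and Lifr. In tumour it was Il6st (44.3 ± 2.49), Osmr (8.16 ± 0.479), Socs3 (7.33 ± 0.465), Lif (5.62 ± 0.422), Clcf1 (5.55 ± 0.374), Il6 (2.48 ± 0.374), Lifr (0.439 ± 0.218), Il11 (0.247 ± 0.115) and Cntf (0.163 ± 0.172). There Osmr and Socs3, Lif and Clcf1, and the 3 lowest genes with counts overlapped with their neighbours. Lif thus stood below Il6 per kb in pancreas and above it in tumour, level with Clcf1.

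**Figure D3:**
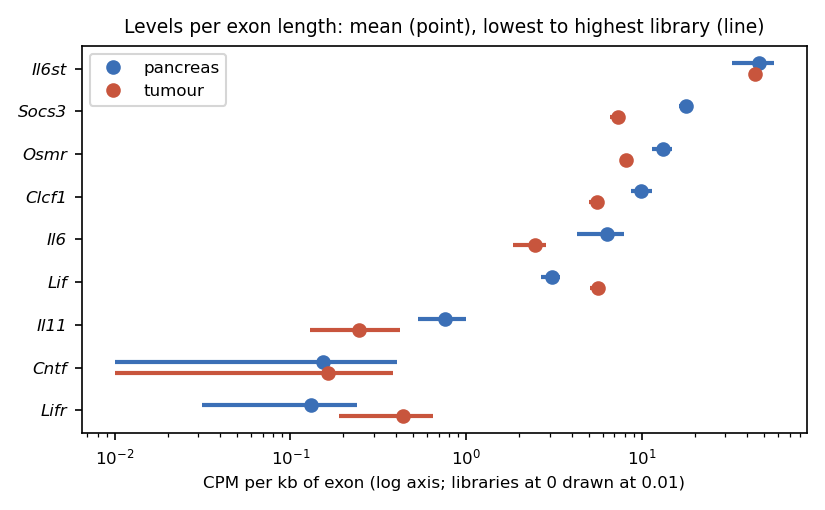
Level per kb of exon (log axis) of the 9 members with counts, blue for pancreas and red for tumour. Points are means of 5 libraries and lines run from the lowest to the highest library. Lif is the abundant member whose tumour point lies to the right of its pancreas point (5.62 against 3.07).

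Ratios between members within a library do not depend on how libraries are scaled, and are given per exon base without a test. Lif to Il6 was 0.451, 0.380, 0.622, 0.672 and 0.433 in pancreas and 2.09, 2.42, 2.23, 2.74 and 2.00 in tumour. Every tumour library had more Lif than Il6 per base and every pancreas library less, and the medians differed 4.96-fold. Lif to Socs3 ran from 0.157 to 0.212 in pancreas and from 0.671 to 0.871 in tumour. Lif to Clcf1 ran from 0.280 to 0.352 in pancreas and from 0.888 to 1.24 in tumour. The LIF transcript thus gained on both other ligands and on the inhibitor in each tumour library.

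Receptor ratios moved as well. Osmr to Lifr was 60.0 to 364 in pancreas, with a median of 95, and 12.8 to 40.0 in tumour, with a median of 14.9. Osmr remained the more abundant of the pair in all 10 libraries. Il6st to Osmr was 3.37, 3.04, 4.88, 4.53 and 2.27 in pancreas and 5.44, 5.40, 5.45, 5.41 and 5.47 in tumour. The tumour libraries were almost equal in this ratio, while pancreas replicates 3 and 4 were high and pancreas replicate 5 low within their group.

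**Figure D4:**
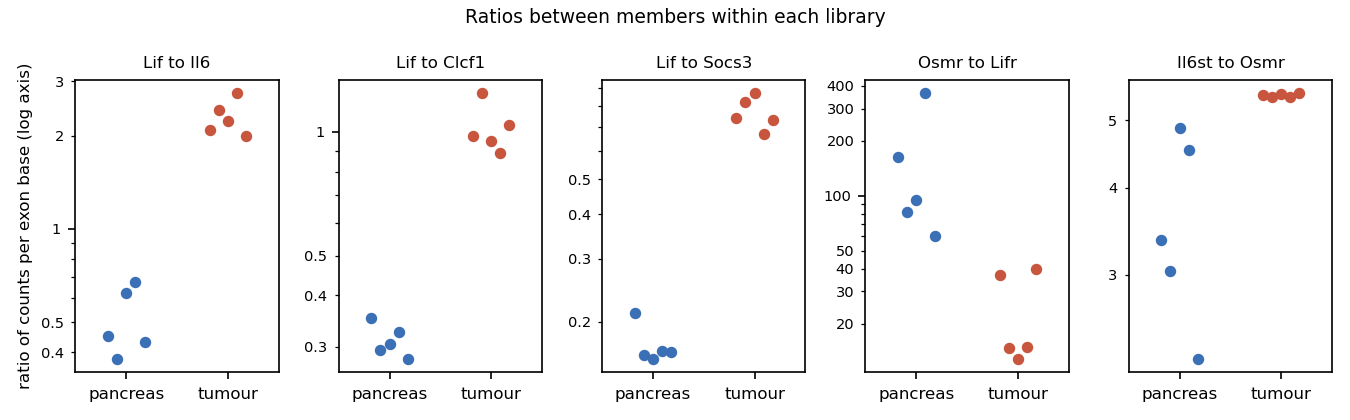
Ratio of counts per exon base (log axis) between pairs of members in each library, pancreas in blue and tumour in red, replicates 1 to 5 from left to right. The groups do not overlap in any of the 5 ratios. The Il6st to Osmr ratio spans 5.40 to 5.47 in tumour.

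The genes with a pattern closest to Lif were found by the root mean square difference of centred log2 CPM over the 10 libraries, among 10379 genes that averaged 5 CPM or more. They were the glycine transporter gene Slc6a9 (difference 0.0739), Ormdl1, a regulator of sphingolipid synthesis (0.0741), the mitochondrial heat shock protein gene Hspa9 (0.0755), the MAP kinase phosphatase gene Dusp4 (0.0797) and the RNA helicase gene Dhx34 (0.0798). Their log2 fold changes were 0.77, 0.78, 0.88, 0.79 and 0.89, against 0.87 for Lif. As these genes were picked by likeness over libraries of both groups, fold changes near that of Lif follow from the choice. The median difference over all 10379 genes was 0.481. Within the family the differences from Lif ran from 0.523 for Il6st to 1.08 for Il6.

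Genes that act around these members were followed in 7 lists with 72 genes, of which 60 were tested. Of these 10 were higher and 31 lower in tumour (16.7% and 51.7%), against 32.4% and 33.4% of all tested genes. Their median log2 fold change was -0.21, against 0.00 over all tested genes. The libraries did not overlap for 34 of the 60 genes (56.7%), near the 54.6% of all tested genes. With scaling by library size alone, 16 were higher.

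Among the other ligand genes the cardiotrophin gene Ctf1, outside the naming rule for its low level, was lower (0.971 ± 0.487 and 0.371 ± 0.0951 CPM, adjusted p = 0.00616). Ebi3 and Il31 had 0 counts, and Ctf2 and Il27 had too few to be tested. The alpha receptors did not move together. Il6ra, the ligand-binding receptor for interleukin-6, fell from 44.2 ± 1.58 to 24.7 ± 1.49 CPM (-0.84 ± 0.06, adjusted p = 2.3e-08), the direction of Il6 itself. Il11ra1 was at 26.6 ± 3.08 and 27.6 ± 2.43 CPM (adjusted p = 0.623). Cntfr was at 1.52 ± 0.890 and 2.53 ± 0.471 CPM (0.74 ± 0.34, adjusted p = 0.0704), and passed without pancreas replicate 3 (0.88, adjusted p = 0.0452), without pancreas replicate 4 (1.07, adjusted p = 0.00775) and without both (1.48, adjusted p = 0.00017). It also passed with library size scaling (0.84, adjusted p = 0.044), DESeq2 (0.75, adjusted p = 0.0444), limma-voom (0.92, adjusted p = 0.0189) and a replicate block (0.90, adjusted p = 0.0178). Il27ra was at 1.83 ± 0.504 and 1.25 ± 0.331 CPM (adjusted p = 0.0688), and passed without pancreas replicate 3 (adjusted p = 0.0467) or tumour replicate 4 (adjusted p = 0.0462).

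Of 7 JAK and STAT genes 1 was higher and 2 lower (14.3% and 28.6%, against 32.4% and 33.4% of all tested genes). Jak2 fell from 87.2 ± 3.78 to 59.7 ± 3.88 CPM (-0.55 ± 0.05, adjusted p = 8e-07), and Stat5a rose from 14.8 ± 0.955 to 19.4 ± 1.56 CPM (0.39 ± 0.08, adjusted p = 0.00055). Stat3, the main factor of this pathway and named for that after its values were seen, was at 186 ± 9.79 and 190 ± 0.990 CPM (0.03 ± 0.04, adjusted p = 0.513). Stat5b was at 27.0 ± 5.97 and 29.5 ± 1.62 CPM (adjusted p = 0.385), and passed only without pancreas replicates 3 and 4 (0.35, adjusted p = 0.00166) among the alternatives tried.

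Inhibitors of JAK-STAT signalling were 3 higher and 6 lower of 15 (median 0.03). These were 20% and 40%, against 32.4% and 33.4% of all tested genes. Cish, which is induced by STAT5 and curbs it, fell from 41.5 ± 3.01 to 18.2 ± 1.08 CPM (-1.19 ± 0.07, adjusted p = 4.7e-09). Socs1 (6.03 ± 0.813 and 3.24 ± 0.497 CPM) and Socs5 (81.4 ± 8.15 and 49.0 ± 2.08 CPM) were lower too, by -0.89 ± 0.14 and -0.73 ± 0.07. Socs7 rose from 36.5 ± 2.62 to 55.8 ± 3.77 CPM (0.61 ± 0.06, adjusted p = 1.4e-06). Socs3 had the lowest log2 fold change of the SOCS genes measured here.

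Genes known to be switched on by STAT3 were 11 lower and 3 higher of 18 (61.1% and 16.7%, against 33.4% and 32.4% of all tested genes), with a median of -0.40. Cebpd, a transcription factor of the acute phase response, fell from 323 ± 30.8 to 50 ± 5.41 CPM (-2.69 ± 0.08, adjusted p = 5e-11). The AP-1 genes Fos (116 ± 37.1 and 19.0 ± 4.22 CPM, -2.61 ± 0.25) and Junb (264 ± 39.6 and 103 ± 7.59 CPM, -1.37 ± 0.09) were lower, as was the interleukin-4 receptor gene Il4ra (41.8 ± 6.11 and 17.2 ± 2.35 CPM, -1.28 ± 0.11). The 3 higher members were Hif1a (0.87), the vascular growth factor gene Vegfa (0.66) and the cyclin gene Ccnd1 (0.24), named here after their values were seen. These genes have other regulators as well. Fos and Junb respond quickly to handling of tissue, digestion differed between the groups, and its part in these changes and in that of Socs3 cannot be told apart from the group.

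Acute phase genes, many of them secreted proteins raised by interleukin-6 in liver, could be tested for 6 of 13. Of these 2 were higher and 4 lower (33.3% and 66.7%, against 32.4% and 33.4% of all tested genes). Saa3, a serum amyloid gene, fell from 26.2 ± 4.92 to 5.49 ± 0.274 CPM (-2.26 ± 0.13, adjusted p = 4.8e-09), and Lrg1 from 3.48 ± 1.47 to 0.782 ± 0.418 CPM (-2.14 ± 0.41, adjusted p = 0.00047). Orm1 rose from 0.0678 ± 0.0876 to 2.16 ± 0.226 CPM (26 and 824 counts over the libraries of a group). The haptoglobin gene Hp was at 18.5 ± 11.2 and 9.56 ± 2.76 CPM (-0.95 ± 0.37, adjusted p = 0.0438), with overlapping groups. It kept its call under 9 of 20 alternatives, and lost it without pancreas replicate 2 (adjusted p = 0.0882) or 5 (-0.55, adjusted p = 0.105), or tumour replicate 2 (adjusted p = 0.0753), 3 (adjusted p = 0.0552), 4 (adjusted p = 0.0871) or 5 (adjusted p = 0.0878).

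Genes that control the decay of cytokine mRNA, Il6 among its known targets, were 5 lower and 1 higher of 8 (median -0.34). These were 62.5% and 12.5%, against 33.4% lower and 32.4% higher of all tested genes. The decay factor genes Zfp36l1 (100 ± 18.7 and 51.3 ± 2.40 CPM, -0.97 ± 0.10) and Zfp36 (69.6 ± 4.32 and 44.4 ± 1.26 CPM, -0.65 ± 0.05) were lower. Arid5a, which stabilises Il6 mRNA, was lower as well (16.8 ± 2.82 and 12.1 ± 1.85 CPM, -0.48 ± 0.13, adjusted p = 0.00596). Rc3h1, encoding the decay factor roquin, rose from 54.3 ± 5.71 to 78.1 ± 4.71 CPM (0.52 ± 0.07, adjusted p = 2.1e-05). So the list held decreases of factors with opposite known effects on Il6 mRNA.

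**Figure D5:**
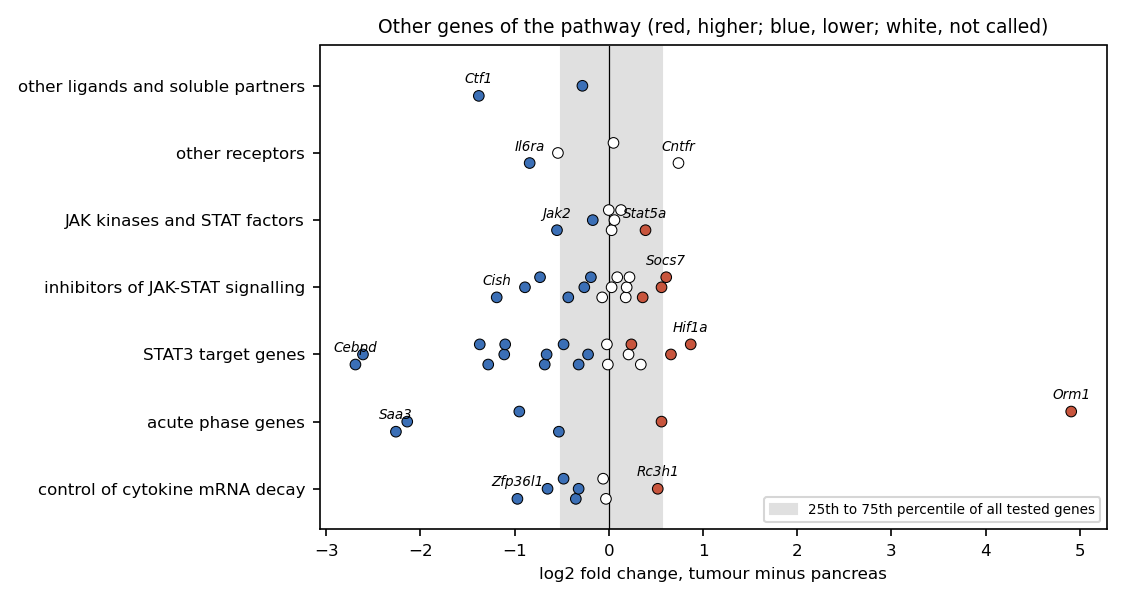
Log2 fold change (tumour minus pancreas) of the 60 tested genes in 7 lists around the family, 1 point per gene, red where higher, blue where lower and white where not called. The band holds the middle of all tested genes (-0.51 to 0.56), and genes at the ends of the lists are named. Cebpd lies farthest left and Orm1 farthest right.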

How the data were processed

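RNA sequencing of 10 sorted cell samples gave 1 library each. Groups and replicate numbers came from the sample titles, and columns were matched through the codes in the sample descriptions. The deposited values are estimated counts per gene, whole numbers in 55401 rows. HISAT, HISAT2, HTSeq and the mm10 build are named in the submitters' processing notes. Tool versions, annotation and strand setting were not given in the sources used here. A count of 4 was 1.69 to 2.07 times as common as the mean of 3 and 5, so a fragment seems to add several counts, and no counting interval is given.

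Genes were kept by filterByExpr (minimum count 10, minimum total 15), which left 17548, and scaled with TMM factors of 0.960 to 1.04. Tumour was compared with pancreas by the quasi-likelihood F test of edgeR 4.0.16 (R 4.3.3, robust), with p-values adjusted by Benjamini-Hochberg over the 17548 genes (threshold 0.05). The SE is the size of the log2 fold change divided by the square root of F. Exon lengths, overlaps and coordinates came from GENCODE M21 (mm10). The labels do not say whether each library is a different animal. The p-values therefore reflect only variation among these libraries, which may be technical. No 2 libraries of a group were closer than sampling noise (chi-square per degree of freedom on counts divided by 4 of at least 3.01). This measure ran from 3.01 to 6.17 between tumour libraries and from 3.59 to 44 between pancreas libraries. The groups thus differed in spread, while the test shared its estimate of spread between them. Members and lists were chosen with earlier results of these data known. The text names all members, up to 4 genes of each list with a mean of at least 1 CPM and the largest changes, the most abundant marker of cell types, and the 5 genes most like Lif (pseudocount 0.5). Some genes that this rule names are not reported here. Alternatives were other scalings, filters and tools, counts divided by 4, a replicate block, and libraries left out.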

Additional observations from a re-analysis of the deposited data

Results flagged for a closer look

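Among 64 sets of 5 values (each member with counts and each list gene named, in each group), 1 held a library far from the other libraries of its group, where about 1 in 20 such sets would by chance. Il6 in tumour replicate 4 was at 4.48 CPM, below 6.22 to 6.91 in the other tumour libraries.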

How the results depend on the processing

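The 7 called members kept their direction and call under all 20 alternatives, which covered 3 scalings, 2 filters, DESeq2, limma-voom, counts divided by 4, a replicate block and libraries left out. Lif ranged from 0.80 to 0.97 (log2), Il6 from -1.63 to -1.25, Il11 from -1.89 to -1.46, Clcf1 from -0.93 to -0.73, Lifr from 1.38 to 2.07, Osmr from -0.82 to -0.59 and Socs3 from -1.33 to -1.19. Il6st changed sign with library size scaling (0.03) and without pancreas replicates 3 and 4 (0.09), and ranged from -0.18 to 0.00 with 1 library left out. Cntf changed sign with limma-voom (-0.44) and ranged from -0.54 to 0.80 with 1 library left out. It was at 2.79 without pancreas replicates 3 and 4, and too low to be tested with the 1 CPM filter or with counts divided by 4. Library size scaling moved the median of all genes to 0.10, gave 6635 genes higher and 4986 lower, and raised the higher pathway genes from 10 to 16. The causes were not tested. Same-numbered libraries did not deviate together (correlations -0.0193 to 0.0394), so numbers pair nothing. With the replicate block 11185 genes were called, and Lif was at 0.87. Depth in fragments is unknown, which limits what Osm, Cntf and Lifr can show.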
